A study of Saccharomyces cerevisiae with 3 samples.

Results

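Yeast mRNAs are described here by how their distribution between polysomes and free messenger ribonucleoprotein differed between 2 samples, G0 and Y5, of a study that moved Saccharomyces cerevisiae abruptly from a fermentable carbon source to one that can only be respired. The difference, Y5 minus G0, could be taken for 5546 of the 5572 genes with a value on any of the 3 arrays of the series. Each of the samples was hybridised on 1 two-colour array, with RNA of the mRNP fraction in the Cy3 channel and RNA of the fraction called Poly, read here as polysomes, in the Cy5 channel. The labels annotate the arrays with stress by nutrient limitation. They give no strain, carbon source, culture, number of cells or unit for the numbers in the sample names, so G0 and Y5 are used as names, and that Y5 is an early time could not be checked. The third array, Y10, was not used here.

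An mRNA that is being translated carries several ribosomes and sediments with the polysomes, whereas an mRNA with no ribosome sediments as a light messenger ribonucleoprotein. Budding yeast growing on glucose ferments it through highly translated glycolytic mRNAs. Sudden loss of glucose is known to stop translation initiation on most mRNAs within minutes, before transcription has had time to remake the pool of mRNAs. In the same cells the mRNAs of ribosomal proteins and of the nucleolar factors that assemble ribosomes are known as large groups that respond to nutrients together.

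Values are log2 ratios of polysome over mRNP relative to the median of each array. A level of 1 therefore means a ratio 2 times that of the median spot, and a difference of 1 means that this ratio was 2 times higher on Y5. The direction is likely rather than stated, since the sources used here give the dyes but not which channel was divided by which. Should it be the opposite, every sign below turns. The base of the logarithm and the centring are not stated either, and the deposited columns had medians of 0.0735 on G0 and 0.067 on Y5. Because each array is set to its own median, a shift of all mRNAs together out of the polysomes cannot be seen, and a lower value says only that an mRNA lost polysome share relative to the typical mRNA. More of an mRNA in one fraction and less of it in the other give the same ratio. Each value averages a whole culture, so fewer cells loading an mRNA and weaker loading in each cell cannot be told apart.

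With 1 array per side and no dye swap, there was no replicate and no test, and differences are described by a fixed size of 1 log2 unit. The only error that could be measured was that of repeat spots on the same arrays. Over the 880 genes with exactly 2 spots, the SD of the difference of 1 spot was 0.452 log2 units, and of the mean of 2 spots 0.320. Of the 68 such genes whose mean difference passed 1 log2 unit, 64 had both spots on the same side of 0, which so large a mean already favours. Repeat spots share the cultures, the fractions and the hybridisation, so this SD understates the error of a difference between samples. The arrays also differed by printing sector, with median differences from −0.64 to 0.37 over the 32 sectors, and 4 sectors lay at −0.25 or below. Values after centring each sector are given for only some genes and lists, and unmarked values can move as well. With that step the difference of VMA4 went from −3.44 to −2.86 and that of GLN1 from 2.20 to 2.78.

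Of the 5546 genes, 223 (4.02%) were higher by 1 log2 unit or more on Y5 and 583 (10.5%) lower by as much. The median difference was −0.01, with 2751 genes above 0 and 2795 below. The levels on the arrays correlated with r = 0.413 across genes, which are not independent replicates. Of 513 genes with a level of at least 1 on G0, 155 were also at 1 or more on Y5 and 126 lay below the median there. Genes at −1 or less numbered 253 on G0 and 367 on Y5, with 54 in common. The difference ran against the starting level: of 5 groups of near-equal size ordered by G0 level, the lowest had a median difference of 0.46 and the highest one of −0.58. Error in the G0 value enters both quantities with opposite sign and was not separated from it. Many lists whose members were high on G0 are therefore also given as the residual from the line fitted through all genes, in which a gene is compared with genes of the same G0 level.

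**Figure D1:**
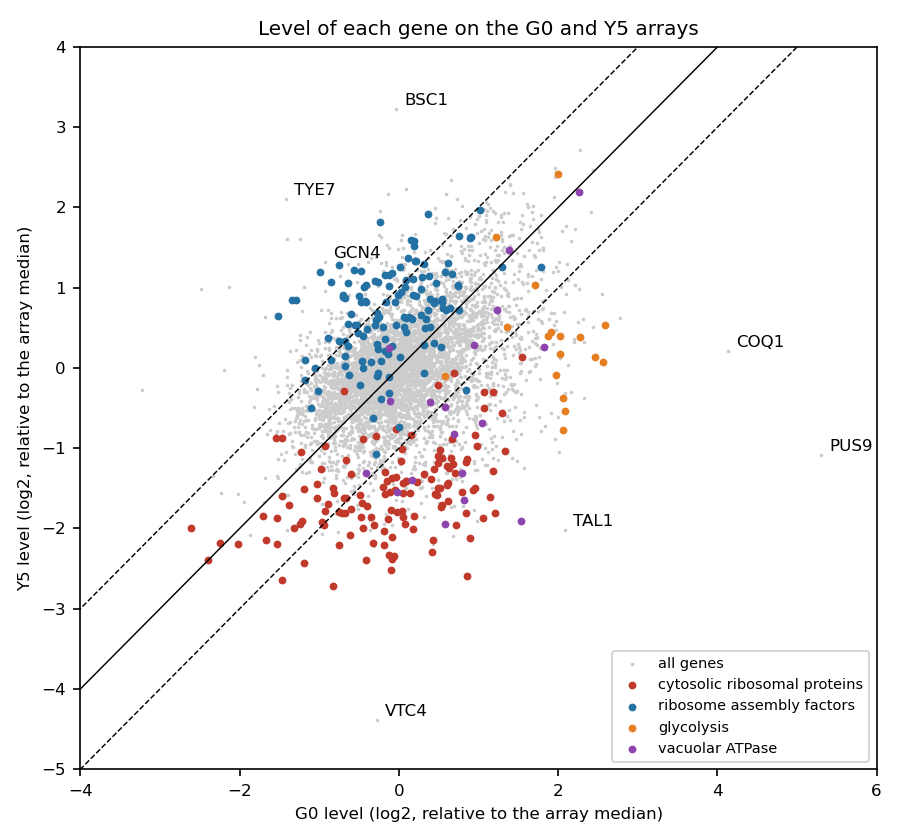
Level of each of the 5546 genes on G0 (x axis) and Y5 (y axis), in log2 units relative to the array median, with the solid line at equality and the dashed lines 1 log2 unit above and below. Ribosomal protein genes form a cloud below the lower dashed line, where 95 of 132 lie, ribosome assembly factors lie mostly above the solid line, and glycolytic genes start near 2 on G0 and end near the median on Y5.

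The single largest differences were carried by genes of unrelated roles. Among genes with 1 spot on each array, TYE7, an activator of glycolytic genes, lay at −1.42 on G0 and 2.11 on Y5, a difference of 3.53 and the highest of all genes. GLE1, an mRNA export factor at the nuclear pore, lay at −2.48 on G0 and 0.98 on Y5 (difference 3.46). BSC1, a gene known for stop codon readthrough, lay at −0.04 on G0 and 3.22 on Y5 and had the highest level of all genes on Y5. These 3 genes thus went from at or below the median to well above it. RPN2, a proteasome base subunit (3.13), CYM1, a protease of the mitochondrial intermembrane space (3.01), BOR1, a borate transporter (2.96), YCX1, a putative membrane exchanger of cations (2.85), QCR6, a subunit of respiratory complex III (2.32), TIM22, a translocase of the inner mitochondrial membrane (2.30), and GCN4, which activates genes of amino acid synthesis (2.26), followed. IZH1, a membrane protein of zinc homeostasis (2.21), UTP6 and BUD21, both of the small subunit processome (2.20 and 2.17), GDA1, the Golgi guanosine diphosphatase (2.17), and UGA4, the permease for 4-aminobutyrate (2.15), completed the highest 15. BOR1, GLE1, GDA1 and RPN2 were among the 12 lowest genes of the G0 array, so their differences rest mainly on a low G0 spot.

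At the other end, PUS9, a mitochondrial tRNA pseudouridine synthase, lay at 5.30 on G0 and −1.09 on Y5 and COQ1, which makes the side chain of coenzyme Q, at 4.13 on G0 and 0.21 on Y5. These were the highest G0 levels of any gene, from 1 spot each, so they could not be checked on the array. VTC4, the polyphosphate polymerase of the vacuole, lay at −0.28 on G0 and −4.39 on Y5 and was the lowest gene on Y5, while the other members of its complex, VTC1, VTC2 and VTC3, differed by only −0.43, −0.78 and −0.16. TAL1, transaldolase, lay at 2.08 on G0 and −2.02 on Y5 (−3.53 for the difference after sector centring). VMA4 of the vacuolar ATPase (−3.44), AHP1, a peroxiredoxin (−3.05), RPL15A (−3.01), RPS4B (−3.01), the ribosome-bound scaffold ASC1 (−2.93), PRX1, the mitochondrial peroxiredoxin (−2.88), ZWF1, glucose-6-phosphate dehydrogenase (−2.84), GLK1, glucokinase (−2.83), COQ5 of coenzyme Q synthesis (−2.83), MRP8, a protein of uncertain role (−2.79), and RPL7A (−2.75) made up the rest of the lowest 15. Ribosomal proteins, the pentose phosphate pathway, coenzyme Q synthesis and peroxiredoxins each appear more than once among these genes.

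Genes with repeat spots carry an error of their own. GLN1, glutamine synthetase, lay at −0.24 on G0 and 1.96 on Y5, and its spots differed by 2.08 and 2.33. PUF6, an RNA-binding protein of large subunit assembly that also represses translation of ASH1, lay at −0.99 on G0 and 1.20 on Y5, with spots at 2.23 and 2.15. NOP53 (spots 1.84 and 1.52), NOC4 (1.32 and 1.16) and REA1 (2.02 and 0.59), all of ribosome assembly, were also among the 12 highest. MIG2, a repressor of glucose-repressed genes (1.33), CLG1, a cyclin-like partner of the kinase Pho85 (1.53), ATG41, an autophagy factor (1.42), TIP41, a regulator in the TOR pathway (1.21), AIM44 of the bud neck (1.17), LAM5, a sterol transfer protein (spots 2.14 and 0.48), and YOR342C (1.20) completed them. The spots of REA1 and of LAM5 lay far apart, so their means are less sure than those of GLN1 or PUF6.

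Among the 12 lowest with repeat spots, RPL1A lay at 0.85 on G0 and −2.59 on Y5 (spots −3.31 and −3.59), PDC5, a pyruvate decarboxylase, at 2.32 on G0 and −0.38 on Y5 (spots −2.68 and −2.72) and RPL7B at 0.93 on G0 and −1.53 on Y5 (spots −2.36 and −2.55). SAR1, the GTPase that starts COPII vesicles (−2.39), YOP1, a protein that shapes endoplasmic reticulum tubules (−2.33), and ERV29, a cargo receptor for vesicles leaving the endoplasmic reticulum (−2.04), all belong to the early secretory pathway. DDR48, a stress protein (−2.06), LAT1 of pyruvate dehydrogenase (−1.92), ENO1, an enolase (−1.88), ATP20 of the ATP synthase (−1.87), MRI1 of the methionine salvage pathway (−1.76), and HSP82, an Hsp90 (−1.64), were the other members. In all 12 the spots lay closer to each other than either lay to 0. They were picked for a low mean and spots on the same side of 0, which favours such closeness, so it is no separate check.

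The 83 gene lists described below hold 2185 of the genes, 363 of the 583 lower ones and 111 of the 223 higher ones. In 24 lists the median lay at least 0.5 log2 units from that of all genes, below it in 21 and above it in 3. The 3 above were the factors of large subunit assembly, the small subunit processome and the mRNAs with reported upstream reading frames. Those below were both ribosomal protein lists, elongation factors, 6 lists of central carbon metabolism, complex IV, the ATP synthase, coenzyme Q and ergosterol synthesis, the vacuolar ATPase, redox enzymes, cytosolic chaperones, folding in the endoplasmic reticulum, vesicle coats, actin, the proteasome core and the COS family.

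**Figure D2:**
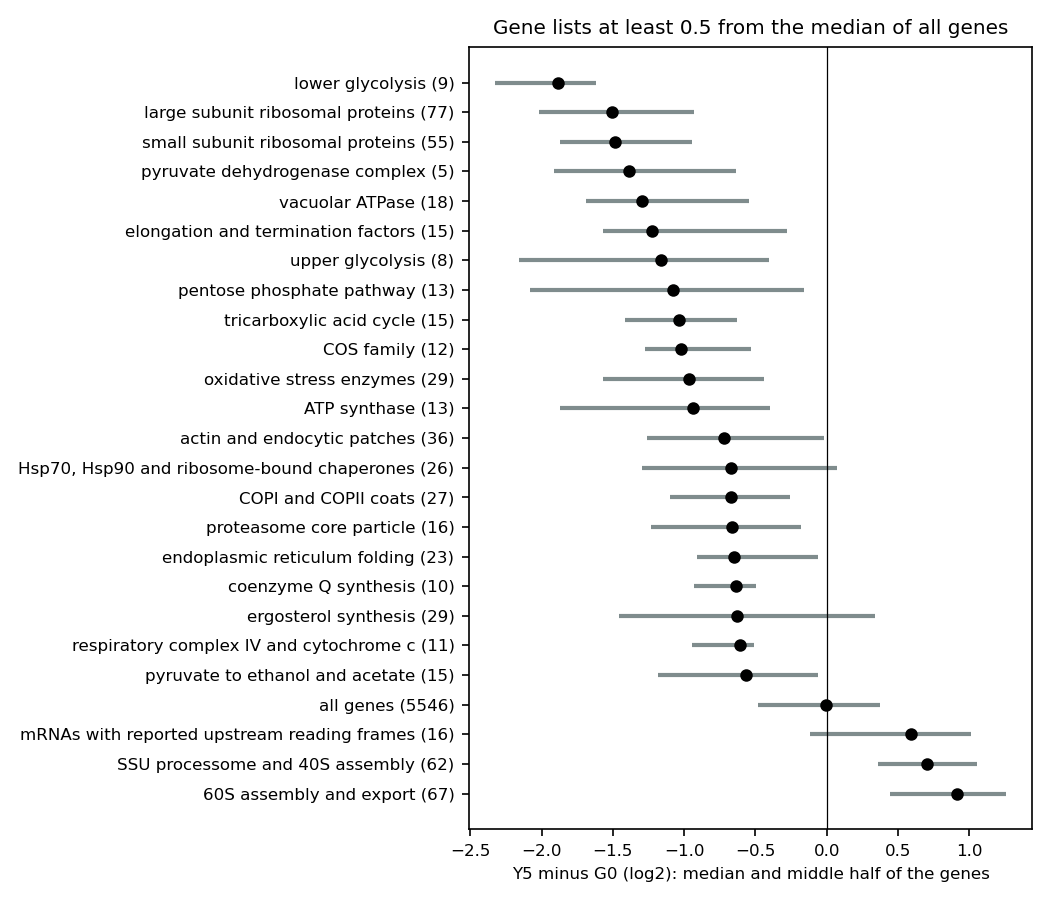
Y5 minus G0 in log2 units for the 24 gene lists whose median lay at least 0.5 from that of all genes, with the number of measured genes in brackets. Points are medians and bars span the middle 50% of the genes. Lower glycolysis has the lowest median (−1.88) and large subunit assembly the highest (0.92).

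mRNAs of the cytosolic ribosomal proteins were the largest group that was lower on Y5. Of 77 measured genes of the large subunit, 54 were at least 1 log2 unit lower and 0 at least 1 higher, with a median of −1.51. Of 55 genes of the small subunit, 41 were at least 1 lower and 0 at least 1 higher, with a median of −1.49, against 10.5% lower and a median of −0.01 over all genes. On G0 these mRNAs lay near the middle of the array (median −0.07), with 21 of the 132 at −1 or less. On Y5 their median was −1.58, 114 lay at −1 or less, 1 lay above the array median (RPP0, at 0.13), and they made up 9 of the 12 lowest genes of the array. The residual medians were nearly as low (−1.46 and −1.42). In the 4 lowest sectors lay 8 of the 132, and the median without those 8 was −1.48.

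Within the subunits the values ran along a wide scale. On the large subunit RPL1A, RPL15A, RPL7A, RPL6B (−2.71) and RPL9A (−2.67) were lowest. RPL3 (−0.76) and RPL5 (−0.70), a core protein and the carrier of 5S RNA, were lower by less than 1 log2 unit. RPS3, at the mRNA entry channel, lay at 0.84 on G0 and −1.81 on Y5, and RPS13 at −0.10 on G0 and −2.51 on Y5. Several genes for very small proteins were instead low on both arrays. RPL41A lay at −2.61 on G0 and −2.0 on Y5, RPL39 at −2.24 on G0 and −2.19 on Y5 and RPS29A at −1.71 on G0 and −1.85 on Y5. RPS30B lay at −2.40 on each array. Of these, RPL41A and RPL39 lay slightly higher on Y5. Likewise 5 of the 6 ribosomal protein genes with a difference above 0 (RPL41A, RPL22B, RPL39, RPS27A and RPS28B) had a G0 level below −1.

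Most yeast ribosomal proteins are encoded by an A and a B gene, and both were measured for 55 pairs. Both genes were at least 1 log2 unit lower in 33 pairs, both were below 0 in 50, and the differences of the paired genes correlated with r = 0.623 over the 55 pairs. The cDNA of one copy can bind the spot of the other, so such values are not independent and each is uncertain for its own gene. Even so, 8 pairs were at least 1 log2 unit apart. RPL22A lay at −0.93 and RPL22B at 0.60, RPL31A at −0.66 and RPL31B at 0.41, RPS30A at −1.59 and RPS30B near 0, and RPS22A at −1.61 and RPS22B at −0.48. RPS23B was the lower copy (−1.49 against −0.03 for RPS23A), as was RPS27B (−0.69 against 0.68 for RPS27A). RPL1B (−2.02) and RPS6B (−1.36) were less low than RPL1A and RPS6A (−2.46). The genes with repeat spots among the large subunit proteins, 8 in number, had a median of only −0.23. They include RPL41A, RPL41B, RPL33A, RPL43A and RPL31B, all below the median on G0, as well as RPL1A (−3.45) and RPL7B (−2.45), both above it. Whether the G0 level bears on this median was not tested. For the 5 small subunit genes with repeat spots it was −1.49.

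**Figure D3:**
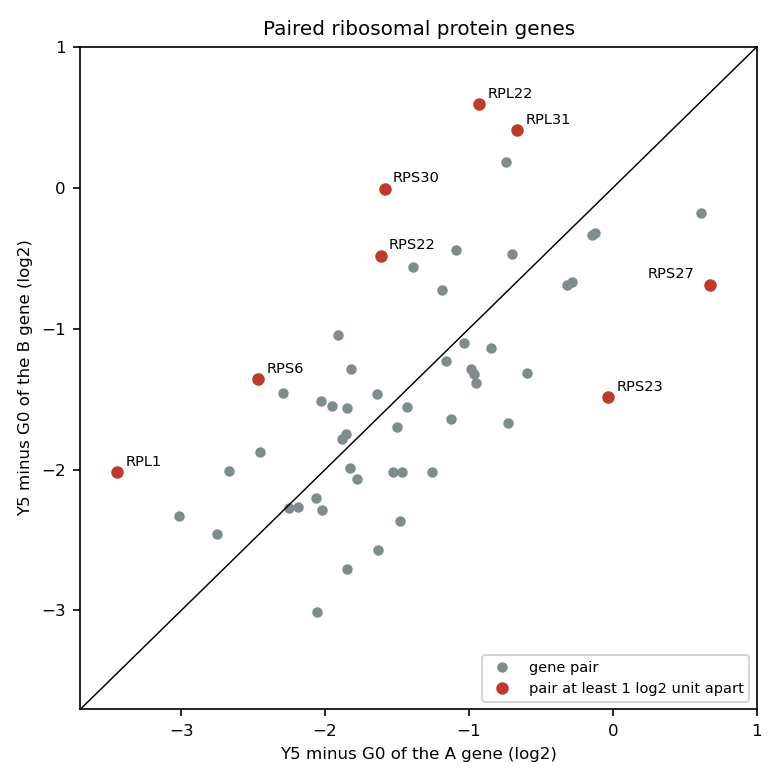
Y5 minus G0 in log2 units of the A gene (x axis) and the B gene (y axis) of 55 pairs of ribosomal protein genes, with the line of equality. The 8 named pairs are at least 1 log2 unit apart, and the other pairs scatter around the line.

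Mitochondrial ribosomal proteins, which make the ribosomes of the organelle, stayed much closer to the middle. Of 75 measured genes 6 were at least 1 lower and 0 at least 1 higher, with a median of −0.30. MRPS9 (−1.49) and NAM9 (−1.36) of the small subunit and MNP1 (−1.26) of the large subunit were lowest, and YML6 (0.74) and MRPL24 (0.72) highest. The 6 lower genes are 8.0% of the list, against 10.5% of all genes.

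The factors that build ribosomes went the opposite way from the proteins they assemble. Of 67 measured genes of large subunit assembly and export, 64 lay above 0, 25 were higher by 1 log2 unit or more and 0 lower by as much (median 0.92). Of 62 genes of the small subunit processome and small subunit assembly, 52 lay above 0, 18 were at least 1 higher and 1 at least 1 lower (median 0.70). Together they supplied 43 of the 223 genes at least 1 higher, with 4.02% of all genes higher by that much. Their medians were −0.13 and −0.07 on G0 and 0.84 and 0.66 on Y5. The residual medians of 0.86 and 0.69 were close to the differences, and the 15 small subunit factors with repeat spots had a median of 0.39.

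On the small subunit side the processome proteins UTP6 (−1.35 on G0 and 0.85 on Y5) and BUD21 (−1.52 on G0 and 0.65 on Y5) were highest, followed by BFR2 (1.93), ENP2 (1.78), NOP14 (1.56) and BUD22 (1.55). ROK1, an RNA helicase, lay at −0.42 on G0 and 1.03 on Y5. IMP3, which binds the U3 small nucleolar RNA, lay at −0.60 on G0 and 0.68 on Y5. NOB1, the nuclease that makes the mature end of 18S rRNA, differed by 0.98, just short of the size rule, and UTP18 by 1.02, just past it. The core proteins of box C/D small nucleolar RNPs, which methylate rRNA, differed among themselves: NOP1, fibrillarin, lay at −0.53 and NOP56 at −0.12, while NOP58 lay at 0.62 and SNU13 at 0.70. NOP6 was the 1 member at least 1 lower (−1.11), and EMG1, a methyltransferase, lay at −0.73.

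On the large subunit side PUF6, NOG2, a GTPase of nuclear export (−1.29 on G0 and 0.85 on Y5), NOP13 (2.05) and CIC1 (2.05) were more than 2 log2 units higher. RIX1 (1.59) and REA1 (1.31), the giant ATPase that RIX1 recruits to the precursor, were both higher, as were RPF1 (1.70), NOP15 (1.61), ARX1 (1.46), an export factor, and REI1 (1.38), which removes ARX1 in the cytoplasm. NMD3, the export adaptor, differed by 0.53 and TIF6, which keeps the subunits apart, by 0.42. The 3 members below 0 were NIP7 (−0.78), SQT1 (−0.37), the chaperone of RPL10, and SPB4 (−0.19), a helicase. Genes from each stage, from the nucleolus to the cytoplasm, were thus above 0.

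The lists of the polymerases that transcribe rRNA and tRNA genes also had medians above 0. Of 17 genes of RNA polymerase I and its factors 13 lay above 0 and 2 were at least 1 higher (median 0.43), led by the subunit RPA12 (1.30) and the core factor RRN11 (1.26). RRN3, the growth-regulated initiation factor, lay at −0.79 on G0 and 0.17 on Y5, whereas the largest subunit, RPA190, differed by −0.51 over its repeat spots. The median of the 5 polymerase I genes with repeat spots was −0.07, and the residual median of that list was 0.28. Of 20 genes of RNA polymerase III and its factors 18 lay above 0 and 1 was at least 1 higher (median 0.34), RET1, the second largest subunit, at 1.35. MAF1, the repressor of this polymerase, differed by 0.37. The 12 subunits of RNA polymerase II had a median of 0.01 and 0 past 1 either way. Of the subunits shared between polymerases, RPC40 (0.39) and RPC19 (0.54) lay above 0 and RPC10 (−0.51), RPB5 (−0.27) and RPO26 (−0.15) below.

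**Figure D4:**
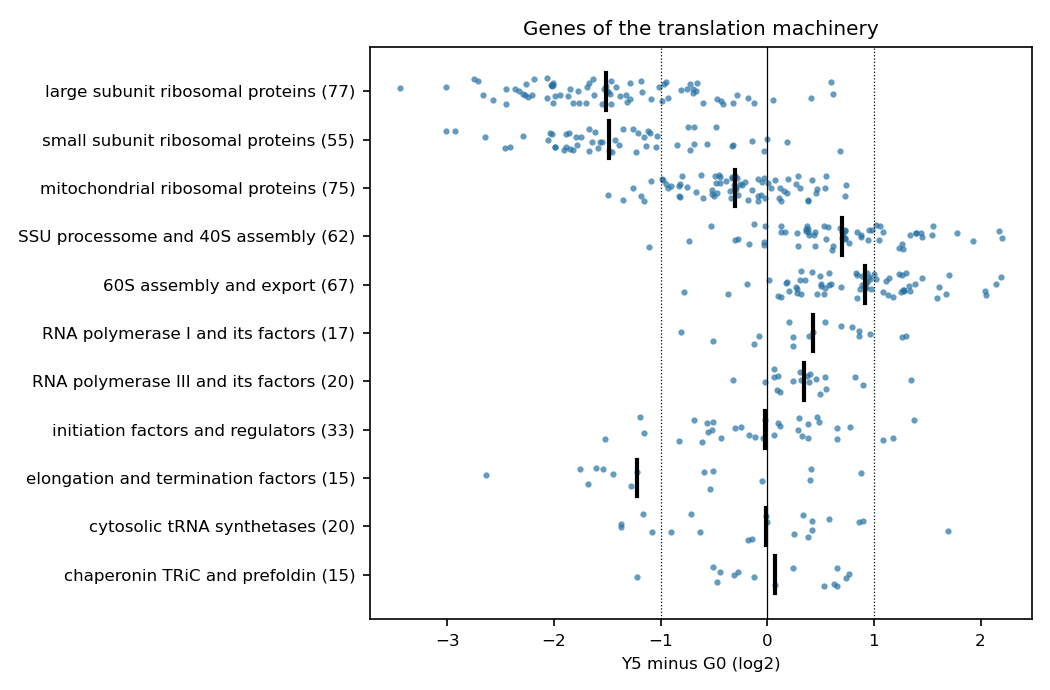
Y5 minus G0 in log2 units for each gene of 11 lists of the translation machinery, with the number of measured genes in brackets. Points are genes, spread at random within a row for visibility, bars are medians, and dotted lines mark 1 log2 unit each way. Both ribosomal protein lists and the elongation factors lie to the left, and both assembly lists to the right.

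Translation factors are given by the step they serve. Initiation factors and their regulators were centred at the middle of the array (33 genes, median −0.02, residual 0.25). Of them 3 were at least 1 higher and 3 at least 1 lower, against 4.02% and 10.5% of all genes. The share of lower ones was thus near that of all genes. Members of one complex lay at both ends. CDC33, the cap-binding protein eIF4E, lay at 0.65 on G0 and −0.87 on Y5, and PAB1, the poly(A)-binding protein, at 1.10 on G0 and −0.10 on Y5. TIF4631, the scaffold eIF4G that joins them, lay at 0.76 on G0 and 1.85 on Y5 and the helicase DED1 at 0.73 on G0 and 2.11 on Y5. TIF1 (−0.61) and TIF2 (−0.83), near-identical genes of the helicase eIF4A, were on the low side. eIF3 was spread about 0 (6 genes, −0.68 for HCR1 to 0.78 for RPG1). Of the subunits of eIF2 and its exchange factor eIF2B, the switch that the starvation kinase GCN2 acts on, GCD2 stood out at 0.07 on G0 and 1.24 on Y5, while GCD7 (−0.57), GCD1 (−0.56), SUI3 (−0.51) and GCN3 (−0.44) lay below 0. GCN2, the kinase itself, differed by −0.30, and TIF11, eIF1A, by −1.16.

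Elongation and termination factors were lower as a list (15 genes, 8 at least 1 lower and 0 at least 1 higher, median −1.23). TEF1, elongation factor 1 alpha, lay at 1.41 on G0 and −0.20 on Y5, the exchange factor EFB1 at 0.72 on G0 and −0.51 on Y5, and HYP2, eIF5A, at 1.24 on G0 and −0.21 on Y5. ANB1 (−2.64) is a close copy of HYP2, and TEF2 (−0.53) and EFT1 (−0.60) of TEF1 and EFT2 (−1.28), so their values cannot be told apart for certain. YEF3, the fungal elongation factor 3, kept a high level (1.49 on G0 and 1.44 on Y5), and RLI1, which recycles ribosomes (0.88), and SUP35, the release factor that can form a prion (0.40), lay above 0. This list started high (median 1.24 on G0), and its residual median was 0.05, so compared with other genes of the same G0 level it was not low.

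Aminoacyl-tRNA synthetases of the cytosol kept their place above the median (20 genes, medians 1.22 on G0 and 1.16 on Y5), with 4 at least 1 lower and 1 at least 1 higher. Their median difference was −0.01 and their residual median 0.80. GUS1, for glutamate, differed by −1.38, and GLN4, for glutamine, by 1.69, from 0.66 on G0 and 2.35 on Y5. HTS1 (−1.38), FRS1 (−1.16) and DED81 (−1.08) were lower, and CRS1 (0.89) and CDC60 (0.86) higher by less than 1. The 13 mitochondrial synthetases ranged from −0.69 to 0.26. Of 44 tRNA modification genes 6 were at least 1 higher, among them TRM11 (1.53), TRM1 (1.23) and TRM2 (1.20), which methylate tRNA, and PUS1 (1.05), a pseudouridine synthase, and PUS9 was the 1 at least 1 lower.

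mRNA decay factors stayed near the middle (37 genes, median 0.12, 0 at least 1 higher and 2 at least 1 lower). SBP1, a repressor of translation that binds eIF4G, lay at 1.54 on G0 and 0.36 on Y5, and SCD6, another eIF4G binder, at −0.02 on G0 and −0.89 on Y5. The decapping activators DHH1 (0.57) and PAT1 (0.54) and the Pumilio proteins MPT5 (0.87) and PUF3 (0.71) lay above 0. The exosome, which degrades and trims RNA, and its cofactors had a median of 0.25 (17 genes, 13 above 0), with MPP6 at 1.08.

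Glycolytic mRNAs, among the highest on G0, were close to the array median on Y5. Of 17 genes in both parts of the pathway 15 lay below 0, and 12 were at least 1 log2 unit lower. In the upper part HXK1, hexokinase 1, lay at 1.98 on G0 and −0.09 on Y5 and GLK1 at 2.06 on G0 and −0.77 on Y5, while HXK2, the hexokinase made on glucose, differed by −0.85. PFK1 lay at 2.0 on G0 and 2.42 on Y5 and PFK2 at 1.22 on G0 and 1.63 on Y5. The subunits of phosphofructokinase, the committed step, were the 2 genes of the pathway with a difference above 0. All 8 genes of the upper part lay at 1 or more on G0, and 3 of them did so on Y5. TPI1, triose phosphate isomerase, lay at 2.06 on G0 and −0.38 on Y5.

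In the lower part all 9 genes were below 0 and 8 at least 1 lower (median −1.88). GPM1, phosphoglycerate mutase, lay at 2.09 on G0 and −0.54 on Y5, PGK1, phosphoglycerate kinase, at 2.02 on G0 and 0.17 on Y5, and CDC19, pyruvate kinase, at 2.46 on G0 and 0.13 on Y5. The dehydrogenase genes TDH1 (−2.49), TDH2 (−1.62) and TDH3 (−1.46) and the enolases ENO1 (−1.88) and ENO2 (−2.05) are near-identical within each set and are uncertain one by one. PYK2, the minor pyruvate kinase, differed by −0.67. The residual median of the lower part was −0.48 and that of the upper part −0.15, so much of the list's difference was shared with other genes as high on G0.

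Past pyruvate, the fermentative branch was lower too. PDC1 lay at 1.74 on G0 and 0.28 on Y5 and ADH1, the main alcohol dehydrogenase, at 1.79 on G0 and 0.58 on Y5. ADH2, the enzyme that consumes ethanol, lay at 1.42 on G0 and 0.52 on Y5, and ALD4, the mitochondrial aldehyde dehydrogenase, at 1.39 on G0 and −0.65 on Y5. ACS1, the acetyl-CoA synthetase used on nonfermentable carbon, lay at −1.06 on G0 and −0.10 on Y5, and ACS2, its counterpart on glucose, at 1.63 on G0 and 1.47 on Y5. Of the 15 genes 4 lay above 0 and 5 were at least 1 lower (median −0.57, residual −0.13).

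Genes of the glyoxylate cycle and gluconeogenesis, which nonfermentable carbon needs, lay mostly below the median on both arrays (13 genes, medians −0.38 and −0.12). Of them 0 were at least 1 higher and 1 at least 1 lower. PCK1, which makes phosphoenolpyruvate, lay at −0.68 on G0 and −0.15 on Y5, FBP1, fructose bisphosphatase, at −0.83 on G0 and −0.46 on Y5, and ICL1, isocitrate lyase, at −0.82 on G0 and −0.85 on Y5. MDH3, the peroxisomal malate dehydrogenase, was the 1 at least 1 lower, at 1.06 on G0 and −0.66 on Y5. Of the 13 genes 3 lay at 1 or more on G0, MDH3 among them, and 1 on Y5. The mRNAs of these pathways are scarce in cells growing on glucose, and how far such spots stood above background was not known here.

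The pentose phosphate pathway, which makes NADPH and ribose, held some of the largest differences (13 genes, 7 at least 1 lower, 0 at least 1 higher, median −1.08). ZWF1, the entry enzyme, lay at 1.96 on G0 and −0.88 on Y5, SOL3, the lactonase, at 1.05 on G0 and −1.14 on Y5, RPE1, an epimerase, at 1.08 on G0 and −1.0 on Y5, and TKL1, transketolase, at 1.53 on G0 and 0.06 on Y5. After sector centring ZWF1 stood at −2.26, and SOL3 at −2.12. GND1, the second dehydrogenase of the oxidative branch, differed by only −0.16, and RKI1 lay above 0 (0.84). Its residual median was −0.77.

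Glycerol genes divided between paralogs. GPD1, the osmotically induced glycerol-3-phosphate dehydrogenase, lay at 1.91 on G0 and −0.56 on Y5 and GPP2 at 1.03 on G0 and −0.22 on Y5, whereas GPD2 lay at 0.10 on G0 and 0.85 on Y5 and GPP1 at 0.36 on G0 and 1.37 on Y5. Both enzymes of glycerol use, GUT1 (−0.46) and GUT2 (−0.51), and STL1, the glycerol importer (−1.05), were on the low side. Trehalose and glycogen genes had a median of −0.30 (21 genes, 4 at least 1 lower, 1 higher), with PGM2 (−2.02), UGP1 (−1.85) and GSY2 (−1.57), 3 steps in a row from glucose-6-phosphate to glycogen, lowest, and GAC1, a glycogen phosphatase subunit, highest (1.34). Hexose transporters showed none past 1 either way (20 genes). HXT7 (−0.73) and HXT6 (−0.43), near-identical high-affinity transporters, were among the 3 lowest, and HXT3 and HXT2 lay at 0.38 and 0.48.

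**Figure D5:**
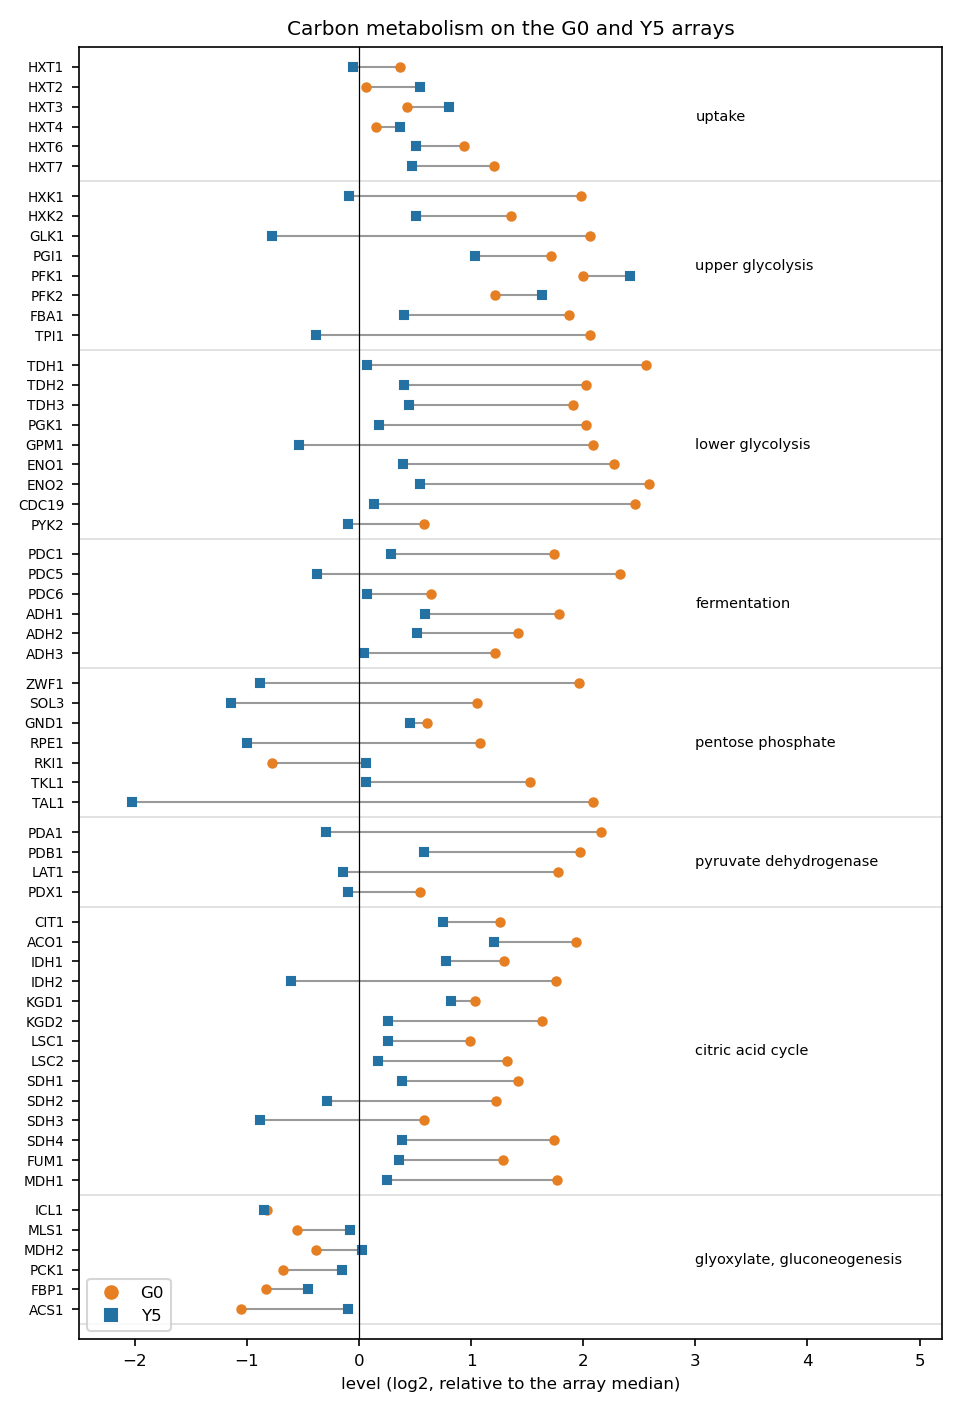
Levels of genes of carbon metabolism on G0 (circles) and Y5 (squares), in log2 units relative to the array median, in pathway order. Most enzymes of glycolysis, fermentation and the citric acid cycle lie between 1 and 2.6 on G0 and nearer 0 on Y5, PFK1 and PFK2 lie above 1 on both arrays, and the genes of the glyoxylate cycle and gluconeogenesis lie mostly at or below the median on both.

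Few genes of glucose repression and of the TOR pathway were past the size rule, whereas the Ras and protein kinase A list held more. Of all genes, 4.02% were at least 1 higher and 10.5% at least 1 lower. Of 24 genes of glucose repression and the Snf1 kinase, 1 was past 1, MIG2 (−0.65 on G0 and 0.68 on Y5). MIG3, a related repressor, differed by 0.62 and MIG1 by 0.24. STD1, which acts with the glucose sensors, lay at −1.0 on G0 and −0.09 on Y5. SNF1, the kinase itself, differed by −0.26, its activating subunit SNF4 by −0.83, and the anchors GAL83, SIP1 and SIP2 by −0.75, −0.26 and −0.16. The 3 MIG repressors thus lay above 0 and all 5 subunits of the kinase below, by less than 1 except for MIG2. Of 19 genes of Ras and protein kinase A, BCY1, the inhibitory subunit (−1.05), PDE1, a phosphodiesterase (−1.03), and SRV2, a cyclase-associated protein (−1.49), were at least 1 lower. RGS2, which turns off the G protein of the glucose receptor, was at least 1 higher (1.46). The catalytic subunits TPK2 (0.20) and TPK3 (0.60) lay above 0. In the TOR list (21 genes) TIP41 alone passed 1, and TOR1 and TOR2 lay at −0.40 and 0.12.

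Transcription factors of these pathways were more often above 0 than below. HAP4, the limiting subunit of the activator of respiratory genes, lay at −0.37 on G0 and 0.74 on Y5, and ADR1 (0.59), CAT8 (0.45), ERT1 (0.45) and RTG1 (0.70) were also above 0. Of these 16 activators 12 lay above 0 and 1 was past 1. Among 15 regulators of glycolytic and ribosomal protein genes, mostly activators, 12 lay above 0 (median 0.41). SFP1 (0.85), IFH1 (0.77) and RAP1 (0.60) drive ribosomal protein genes, and GCR2 (0.81) and TYE7 glycolytic ones. TOD6, a repressor of ribosome assembly genes, lay at −0.71 on G0 and 0.52 on Y5, and HMO1, which binds ribosomal protein promoters, at 0.10 on G0 and −0.82 on Y5. Most of these 15 regulators lay above 0, whereas most of the glycolytic and ribosomal protein genes lay below. Over all 5546 genes 2751 lay above 0.

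mRNAs with reported upstream reading frames, which can hold ribosomes away from the main frame, had a median of 0.59 (16 genes, 4 at least 1 higher, 1 at least 1 lower). GCN4, the standard example, lay at −0.93 on G0 and 1.32 on Y5. CLN3, a G1 cyclin (0.83), INO2, an activator of phospholipid genes (0.76), DCD1 (1.04), CBS1 (1.06) and URA1 (1.0, just short of the size rule) were on the same side. CPA1, whose frame responds to arginine (−0.68), LEU4 (−1.14) and SCO1 (−0.99) were on the other. The list was thus spread to both sides, and its residual median was 0.32.

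Most genes of mitochondrial carbon oxidation were lower on Y5. The pyruvate dehydrogenase complex ran from PDA1 at 2.16 on G0 and −0.30 on Y5 and LAT1 at 1.77 on G0 and −0.14 on Y5 through PDB1 (−1.39) and PDX1 (−0.64) to PKP1, a kinase that acts on the complex (−0.36). In the citric acid cycle (15 genes, 8 at least 1 lower, 0 higher, median −1.04) IDH2 lay at 1.76 on G0 and −0.61 on Y5 and its partner subunit IDH1 at 1.29 on G0 and 0.78 on Y5. The 4 subunits of succinate dehydrogenase lay close together, SDH1 at −1.04, SDH2 at −1.51, SDH3 at −1.46 and SDH4 at −1.36. KGD1 (−0.22) of ketoglutarate dehydrogenase differed little, and CIT3, a minor citrate synthase, was the 1 gene above 0 (0.07). This list started at a median of 1.29 on G0, and its residual median was −0.14, against −0.48 for pyruvate dehydrogenase. The 3 genes of the cycle with repeat spots had a median difference of −0.22.

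In the respiratory chain, 33 of 37 genes of complexes III, IV and V and their partners lay below 0. QCR2, a core subunit of complex III, lay at 1.67 on G0 and 0.12 on Y5, while COR1, its partner, lay at 1.76 on G0 and 1.69 on Y5. QCR6 and QCR10 were at least 1 higher (2.32 and 1.68), but the value of QCR10 rested on 1 extreme spot. It turned to −0.17 without the outer 0.5% of spot values, and also with medians over only the spots with a value on both arrays. COX13 (−1.62) and COX5A (−1.06) were the members of complex IV at least 1 lower, and CYC1, cytochrome c, kept its level (0.24 on G0 and 0.20 on Y5). All 13 genes of the ATP synthase lay below 0 (median −0.94). Its stalk subunits ATP7 (−2.22) and ATP4 (−2.18) and the central stalk subunit ATP16 (−2.20) were lowest, and the catalytic head subunits ATP1 (1.67 on G0 and 1.15 on Y5) and ATP2 (1.5 on G0 and 0.73 on Y5) stayed above the median. Coenzyme Q synthesis had 9 of 10 genes below 0 (median −0.64).

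Import and transport into the organelle showed mixed values. Of 39 import genes 6 were at least 1 lower, against 10.5% of all genes, with a median of −0.21. The 6 included the matrix chaperones SSC1 (−1.41), HSP60 (−1.02), HSP10 (−2.09) and MGE1 (−1.21), and the receptor TOM22 (−1.15). TOM70, another receptor, lay at 0.28 on G0 and 1.07 on Y5, and TIM22 at −0.14 on G0 and 2.17 on Y5. Of 29 carriers 6 were at least 1 lower, among them GGC1 for GTP (−1.77), MIR1 for phosphate (−1.28) and the porin POR1 (−1.15), and OAC1, for oxaloacetate and sulfate, was at least 1 higher (1.03). PET9, the main ADP/ATP carrier, kept a high level (1.52 on G0 and 1.30 on Y5).

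Redox enzymes were among the lower groups (29 genes, 13 at least 1 lower, 0 at least 1 higher, median −0.96). AHP1 lay at 2.01 on G0 and −1.04 on Y5, PRX1 at 0.98 on G0 and −1.91 on Y5 and HYR1, the main glutathione peroxidase, at 1.57 on G0 and −0.61 on Y5. The thioredoxins TRX1 (−1.69) and TRX2 (−1.29), the glutaredoxin GRX1 (−1.63), cytochrome c peroxidase CCP1 (−1.57), superoxide dismutase SOD1 (−1.25) and the glutathione synthesis enzymes GSH1 (−1.09) and GSH2 (−1.35) were also at least 1 lower. Regulators of these genes were not: YAP1 lay at 0.15 and SKN7 at 0.14. The residual median was −0.60. Most members that detoxify peroxides were thus lower, as was ZWF1, which supplies their NADPH.

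Chaperones of the cytosol held both lower and higher members. Of 26 genes 9 were at least 1 lower and 3 at least 1 higher (median −0.67, residual 0.04). SSA2 lay at 2.44 on G0 and 0.51 on Y5, HSC82 at 1.71 on G0 and 0.31 on Y5 and the Hsp90 partner SBA1 at 1.45 on G0 and −0.49 on Y5. The nascent chain binders EGD1 (−1.46) and EGD2 (−1.02), SSB2 (−1.54) and SSZ1 (−1.34) sit on the ribosome and were at least 1 lower. SSB1 differed by 0.16 over repeat spots although it is nearly identical to SSB2, so neither is certain. The cochaperones SIS1 (0.39 on G0 and 1.47 on Y5), FES1 (1.02) and CNS1 (1.01) were at least 1 higher. For the folding of actin and tubulin, 6 of 8 TRiC subunits lay below 0, with CCT7 at −1.23, while all 6 prefoldin subunits lay above it, from 0.07 for GIM5 to 0.77 for PFD1.

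Stress-induced heat shock genes were split (25 genes, 10 at least 1 lower, 2 at least 1 higher). HSP12 lay at 0.81 on G0 and −1.72 on Y5, HSP26 at 0.30 on G0 and −1.19 on Y5, HSP104, the disaggregase, at 1.11 on G0 and −0.22 on Y5, and GRE3, an aldose reductase, at 1.84 on G0 and −0.73 on Y5. HSP30, a plasma membrane protein that restrains the proton pump, lay at −0.75 on G0 and 1.14 on Y5, and HSP150, a cell wall protein, at 0.47 on G0 and 1.87 on Y5. BTN2, a factor of protein sorting and aggregate handling, lay at −0.11 on G0 and 0.87 on Y5. HSP30 and HSP150 were the 2 at least 1 higher. MSN2 (−0.29), MSN4 (0.25) and HSF1 (0.53), the factors that induce them, stayed within 1.

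The vacuolar ATPase, the proton pump of the vacuole, was lower through most of its subunits (18 genes with assembly factors, 10 at least 1 lower, 0 at least 1 higher, median −1.29). VMA4 lay at 1.53 on G0 and −1.91 on Y5, VMA16 of the membrane ring at 0.58 on G0 and −1.94 on Y5, VMA6 at 0.81 on G0 and −1.64 on Y5, VMA3 at 0.80 on G0 and −1.31 on Y5 and VMA2, the regulatory subunit of the head, at 1.83 on G0 and 0.26 on Y5. VMA1, the catalytic subunit, lay at 2.26 on G0 and 2.20 on Y5 and VPH1, the large membrane subunit, at 1.39 on G0 and 1.47 on Y5. The longest subunits of the complex thus kept their levels, as did PMA1, the proton pump of the plasma membrane (2.27 on G0 and 2.72 on Y5). The median was −1.39 after sector centring, and the residual median was −0.86.

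Actin and the proteins of endocytic patches were also lower (36 genes, 13 at least 1 lower, 0 at least 1 higher, median −0.72). ACT1 lay at 1.80 on G0 and 0.56 on Y5, COF1, cofilin, at 0.96 on G0 and −1.5 on Y5, and PFY1, profilin, at 0.34 on G0 and −1.59 on Y5. All 7 subunits of the Arp2/3 complex, which nucleates branched actin, lay below 0, from −1.92 for ARC15 to −0.75 for ARC19. Capping proteins CAP1 (−1.59) and CAP2 (−1.67) were similar. The myosins MYO1 (0.45), MYO3 (0.24), MYO4 (0.22) and MYO5 (−0.04) and the formins BNI1 (0.03) and BNR1 (0.35) stayed within 0.5 of 0, and MYO2, which carries cargo to the bud, was lower (−0.84). After sector centring the median was −0.43, over the 10 genes with repeat spots it was −0.13, and the residual median was −0.19. TUB1 (−1.91) and TUB3 (−1.30), the alpha tubulins, were at least 1 lower, whereas TUB2, beta tubulin, kept its level (1.81 on G0 and 1.5 on Y5).

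Some groups of the early secretory pathway had medians below 0. Of 27 coat and vesicle genes 7 were at least 1 lower and 0 at least 1 higher (median −0.67, residual 0.17, and −0.16 over the 8 genes with repeat spots). The small GTPases SAR1 (0.65 on G0 and −1.74 on Y5), ARF1 (−1.28) and ARF2 (−1.51) and the cargo receptors EMP24 (−1.61) and ERV25 (−1.38) were lower, while the large coat subunits SEC31 (−0.49) and COP1 (−0.15) differed by less than 0.5. Folding factors of the endoplasmic reticulum had 5 of 23 genes at least 1 lower and 1, the exchange factor SIL1, at least 1 higher (median −0.65, −0.37 after sector centring, residual −0.22). HAC1 lay at 0.42 on G0 and −1.5 on Y5, and its mRNA is known to be held from translation by its own intron. SPC3 of signal peptidase (−2.62) and SGT2 (−2.12), which receives tail-anchored proteins, were the 2 of 26 translocation genes at least 1 lower (median −0.37), a share below the 10.5% of all genes. In N-glycosylation 5 of 28 genes were at least 1 lower, led by SEC53 (1.47 on G0 and −0.89 on Y5), and the oligosaccharyl transferase subunits OST1 (−1.59), WBP1 (−1.31) and OST3 (−1.19) were among them. In mannosylation 4 of 31 were, a share near that of all genes, among them KRE2 (−1.5) and VRG4 (−1.20), and GDA1, which acts beside VRG4 in the Golgi, was the 1 at least 1 higher.

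Cell wall and secreted proteins, the cargo of this pathway, held a high position on both arrays (48 genes, medians 0.84 on G0 and 1.09 on Y5), with 5 at least 1 higher and 2 at least 1 lower. UTR2, a cross-linker of chitin and glucan, lay at −0.23 on G0 and 1.64 on Y5, YPS1, an anchored protease, at −0.51 on G0 and 1.29 on Y5, and TIP1, a mannoprotein, at 0.59 on G0 and 2.17 on Y5. GAS1, a glucan remodelling enzyme (1.43 on G0 and 2.18 on Y5), FKS1, glucan synthase (1.56 on G0 and 2.18 on Y5), and CCW14 (2.43 on G0 and 2.46 on Y5) were near the top of both arrays. CWP1 (1.43 on G0 and −0.79 on Y5) and BGL2 (1.76 on G0 and 0.14 on Y5) went the other way. The residual median of 0.86 was above the difference of 0.23, as other genes equally high on G0 were mostly lower on Y5.

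Lists of amino acid synthesis had medians below 0 and were uneven within pathways. In the aspartate and serine families (19 genes, 7 at least 1 lower, 0 higher) HOM6 lay at 2.0 on G0 and −0.61 on Y5 and HOM2 at 1.98 on G0 and −0.18 on Y5, 2 steps of the same route, while HOM3, its first step, differed by −0.46. In the sulfur list (30 genes, 8 at least 1 lower, 2 higher) MET22 (−2.09), MET10 (−1.63) and MET6 (−1.26) were lower, and MET4 (1.03) and MET31 (1.14), the activators of the pathway, were the 2 at least 1 higher. CYS3 lay at 1.96 on G0 and 2.49 on Y5, among the highest levels on Y5. Branched-chain genes ran from BAT2, the cytosolic aminotransferase (1.04 on G0 and −0.94 on Y5), to ILV5 (−0.03 on G0 and 1.12 on Y5), with BAT1, the mitochondrial aminotransferase, at 1.40 on G0 and 2.29 on Y5. Among aromatic and histidine genes 4 of 21, and among lysine and arginine genes 4 of 20, were at least 1 lower, against 10.5% of all genes. TRP2 (−1.71), HIS1 (−1.68) and ARG7 (−1.32) were lowest among the enzymes. Several of these lists started high, and as residuals the medians turned sign in 3: the sulfur list from −0.48 to 0.21, the aspartate and serine families from −0.46 to 0.27, and the branched-chain genes from −0.18 to 0.19.

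Of 31 nitrogen genes 3 were at least 1 higher and 1 at least 1 lower, against 4.02% and 10.5% of all genes, with a median of 0.17 (0.05 after sector centring). GLN1 and MEP2, an ammonium transporter (0.05 on G0 and 1.5 on Y5), and PUT1, proline oxidase (−0.43 on G0 and 0.59 on Y5), were at least 1 higher, and DAL5 (0.99) and the regulators DAL82 (0.92) and GZF3 (0.79) lay above 0. ASP1, asparaginase, was the 1 of 31 at least 1 lower (−1.06). Of 20 amino acid permeases UGA4 lay at 0.09 on G0 and 2.24 on Y5, LYP1, for lysine, at 0.67 on G0 and 1.73 on Y5, and ALP1, for arginine, at −0.97 on G0 and 0.09 on Y5. SAM3 (−1.30) and MMP1 (−1.17), permeases for S-adenosylmethionine and S-methylmethionine, were at least 1 lower, beside the synthetases SAM1 (−0.67) and SAM2 (−1.18).

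Lipid synthesis divided by branch, and its counts stand against 4.02% of all genes at least 1 higher and 10.5% at least 1 lower. Ergosterol genes (29, 9 at least 1 lower, 0 higher, median −0.63) included ERG20 (1.25 on G0 and −1.15 on Y5), ERG13 (0.74 on G0 and −1.31 on Y5) and ERG10 (1.13 on G0 and −0.76 on Y5), of the early mevalonate part, and ERG28, ERG2 and ERG3 (−2.18, −1.90 and −1.63) of the late part. Of the enzymes that use oxygen, ERG1 (0.68), ERG11 (0.40) and ERG5 (0.99) lay above 0, ERG25 was near 0 (0.04), and ERG3 was low. The 4 genes with repeat spots gave a median of 0.15, and the residual median was −0.15. Fatty acid and sphingolipid genes were centred on 0.03 (28 genes), with FAS1 (0.52), FAS2 (0.74), ACC1 (0.63) and the desaturase OLE1 (−0.60 on G0 and 0.66 on Y5) above 0 and the elongase ELO1 at −1.17. In phospholipid synthesis (29 genes, 5 at least 1 lower, 2 higher) OPI3 (0.77 on G0 and −1.36 on Y5), the last methyltransferase to phosphatidylcholine, and CPT1 (−2.01) were lower, and CHO1, phosphatidylserine synthase (1.11), and URA7, CTP synthase (−0.29 on G0 and 1.39 on Y5), higher. In the nucleotide list (32 genes) URA10 (−1.25) was the 1 at least 1 lower and URA7 the 1 at least 1 higher. Both shares were below those of all genes.

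Nuclear and cell cycle genes lay near or slightly above the middle. Of 55 splicing genes 39 lay above 0, 3 at least 1 higher and 0 at least 1 lower (median 0.33), with PRP43, a helicase that also serves ribosome assembly, at 0.04 on G0 and 1.65 on Y5. Of 33 cyclins and cell cycle regulators 27 lay above 0 (median 0.39), including CLN3, CLN2 (0.72), CLB6 (0.81) and MCM1 (0.93), and CDC4, the substrate adaptor of a ubiquitin ligase, was at least 1 lower (−1.24). In the replication list (40 genes, median 0.02) the subunits of ribonucleotide reductase parted, RNR1 at 0.46 on G0 and 1.99 on Y5 and RNR2 and RNR4 at −0.98 and −1.77. Chromatin remodelling and SAGA genes had a median of 0.13 (37 genes) and 1 past the size rule, the acetyltransferase GCN5 (−0.16 on G0 and 1.33 on Y5). Core histones, whose mRNAs are made in 1 phase of the cycle, had a median of 0.06 (10 genes) and none past 1, and Mediator had 1 of 25, ROX3 (1.06).

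Nuclear transport was near the middle as well. Its shares past 1 were near or below the 4.02% higher and 10.5% lower of all genes. Of 32 nuclear pore genes, NUP49 alone was past 1 (−1.25), and of 22 karyopherins and Ran factors GSP2 (−2.30) and NTF2 (−1.65) were at least 1 lower and SXM1 at least 1 higher (1.24). GSP1, the near-identical main Ran gene, differed by −0.58. Of 20 mRNA export genes HEK2 (−1.26) and SUB2 (−1.18) were at least 1 lower, against the high value of GLE1. DBP5, the helicase that GLE1 activates, differed by 0.64.

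The proteasome was lower through its core (16 genes, 7 at least 1 lower, 0 at least 1 higher, median −0.66) and less through its cap (24 genes, 5 at least 1 lower, 1 higher, median −0.35). PUP3 lay at 0.60 on G0 and −1.21 on Y5 and the ATPase RPT6 at 0.99 on G0 and −0.36 on Y5, and the assembly chaperones NAS6 (−1.58), NAS2 (−1.26) and HSM3 (−1.20) were lower with them. RPN4, the activator of proteasome genes, differed by −0.94. The residual median of the core was −0.43. RPN2, at −2.13 on G0 and 1.0 on Y5, stood apart from its partner RPN1 (1.57 on G0 and 1.40 on Y5), and with 1 spot it could not be checked. Ubiquitin enzymes were centred on 0.05 (43 genes), with UBC4 (−1.57) and UBI4, polyubiquitin (−1.20), at least 1 lower and UBP1 at least 1 higher (1.49). In autophagy and vacuolar proteolysis 6 of 45 genes were at least 1 lower and 1 at least 1 higher, against 10.5% and 4.02% of all genes. The median was −0.18, and 0.27 over the 10 genes with repeat spots. The vacuolar proteases PRC1 (−1.69) and PEP4 (−1.18) and the GTPase YPT7 (−1.89) were among the lower genes, and ATG41 was the higher one.

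The COS family of membrane proteins near telomeres was lower in 10 of 12 genes (6 at least 1 lower, median −1.02), and its members are so alike that the spots may report 1 signal. The PAU and DAN genes, another telomere-proximal family of near-identical members, lay below the median on both arrays (24 genes, medians −0.93 and −0.73) with none past 1. Few genes were past 1 for peroxisomes and fatty acid oxidation (46 genes, 1 higher, 2 lower) and metal uptake (38 genes, 0 and 2). The same held for the pheromone pathway (34 genes, 1 and 1) and tubulin and the spindle (40 genes, 1 and 3). It also held for the wall integrity and osmotic pathways (30 genes, 0 and 0) and 3′ end processing (24 genes, 0 and 1). These shares lay below the 4.02% higher and 10.5% lower of all genes. Phosphate uptake (25 genes, 0 and 3) had a share of lower genes near that of all genes. Complex IV assembly had 1 of 23 genes at least 1 higher and 4 at least 1 lower, with a median of −0.09. Its share of lower genes was above that of all genes.

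Lower genes were unevenly spread over gene length. The genes were ordered by length into 5 groups of near-equal size. In the shortest group (78 to 701 bases) 14.6% were at least 1 log2 unit lower, in the next 16.7%, and in the longest (2133 to 14733 bases) 2.08%. Without the ribosomal proteins, which are short, these shares were 12.7%, 12.7% and 1.94%. Higher genes did not follow this order, with 3.69% of the shortest group, 5.88% of the fourth and 2.62% of the longest group at least 1 higher. A longer reading frame can hold more ribosomes, and no source used here says how the fractions were collected. The part of length in the differences between gene groups was not tested.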

How the data were processed

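RNA of the mRNP and Poly fractions was compared on 1 two-colour array per sample. The deposited log ratios were taken as log2, and the authors' scanner, background correction, normalization and spot filter are unknown here. The series' design names a regression correlation only. Dyes are from the labels, and Cy5 over Cy3 was taken as the likely direction. Values were present for 8700 spots on G0 and 8734 on Y5 of 8832. The platform annotation named 6623 spots, left 2209 with no symbol and gave 0 more than 1, and all 5574 symbols matched RefSeq R64, which also gave gene lengths (introns may be included). Each array was centred on its median, spots of a gene were averaged, and Y5 minus G0 was taken per gene (Python 3.11.15, pandas 2.3.3, numpy 2.4.6). The steps were tested on simulated data. Intensities were not used, so signal over background is unknown, and precision is limited by the number of arrays.

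The 83 lists, the subgroups and the members were chosen with earlier results of these data known. Genes that a name pattern took into a list by mistake were removed after values were seen. Named were the 15 highest and 15 lowest genes with 1 spot per array, the 12 highest and 12 lowest with repeat spots on the same side of 0, list members (in long lists mainly the ends), paired ribosomal proteins and genes just inside or outside 1 log2 unit. Other genes named in a list were chosen for their role, with values in view. Promoter motifs were not analysed here. Alternatives are given at the end.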

Additional observations from a re-analysis of the deposited data

How the results depend on the processing

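With no centring, one common spread, quantile normalization, centring of each sector, the outer 0.5% of spots left out or medians of spots on both arrays, 196 to 277 genes were at least 1 higher (223 as reported) and 531 to 597 at least 1 lower (583 as reported). Over the 958 genes with 2 or more spots, 26 were higher and 46 lower, smaller shares than over all genes. As residuals from G0, 252 were higher and 330 lower. Of the 24 lists past 0.5, all kept their sign under those 6 alternatives. As residuals, elongation factors (0.046), chaperones (0.039) and vesicle coats (0.17) turned sign, as did EFT2 (0.12), HSP60 (0.24), MET17 (0.29), PEP4 (0.12), RIP1 (0.072), SSA1 (0.20) and THR1 (0.066). Ergosterol genes turned to 0.15 over the 4 genes with repeat spots. QCR10 turned to −0.20 with quantile normalization and −0.17 without the outer spots or with medians, LAM5 to −0.11 and PET122 to 0.92 without the outer spots. Outer spots were left out on each array separately, so the averages compared can come from different spots. For LAM5 the G0 spot that was kept (0.58) had a partner at 1.06 on Y5, and that pair differed by 0.48. The causes were not tested. Of 487 genes past 1 that were named or in a list, 414 stayed past 1 with sector centring and 270 as residuals. No paired analysis was possible because each side has 1 array. Limits: with 1 array per side neither culture nor hybridisation error was measured, direction and log base are assumed, copies of near-identical genes share signal, and a change common to all mRNAs cannot be seen.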

Other observations

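Spots with no gene symbol in the annotation used here, 2049 with a value on both arrays, differed more between the arrays than the 6583 named spots. Their SD was 1.23 against 0.748 log2 units, with 13.8% at least 1 higher and 14.4% at least 1 lower, against 4.34% and 10.1%, and values from −7.96 to 6.61. What these spots hold is not known here.

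Of the 12 lowest genes on Y5, those outside the ribosome were VTC4, YOP1 and HOR7, a small protein of unknown role (−1.84 on G0 and −2.83 on Y5). Of the 12 highest, YMR050C, a reading frame of a Ty1 retrotransposon, lay at 1.39 on G0 and 2.28 on Y5, and Ty elements occur in many near-identical copies. SIM1 (1.96 on G0 and 2.38 on Y5), CRH1 (1.97 on G0 and 2.44 on Y5), CCW14 and ECM33 (1.36 on G0 and 2.37 on Y5) are wall proteins, and ECM33 was just past 1 log2 unit in difference.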
